A study of Mus musculus with 15 samples.

Results

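Ntrk2, Smim22 and Tcea3 are 3 of the 21702 protein-coding genes counted in a set of mouse liver libraries. They were chosen by their counts, which were far lower in the livers of control mice late in pregnancy (16 days post-coitum, 16 dpc) than in those of non-pregnant (NP) control mice, so that difference is described here and not tested. RNA from whole liver was sequenced in 15 libraries that form 5 groups of 3. All mice were young adult wild-type C57BL/6 females (C57BL/6N in the study's methods) that had received an AAV8 vector with the liver-specific TBG promoter, which acts in hepatocytes. The vector was empty (AAV8-null) in the NP, 8 dpc and 16 dpc control groups and carried the mouse p21 cDNA (AAV8-p21) in another 8 dpc group and another 16 dpc group. The p21 protein inhibits cyclin-dependent kinases, and the vector was given before mating to block hepatocyte division during pregnancy. An AAV8-p21 group of NP mice was not analysed here, so the vector was compared at 8 dpc and at 16 dpc only. The genes were grouped as lost in pregnancy. That name held for Ntrk2 and Smim22 in AAV8-null samples at 16 dpc, while Tcea3 was lowered there but still counted, and all 3 genes had reads in every 8 dpc library and every AAV8-p21 library at 16 dpc.

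Ntrk2 encodes TrkB, the receptor tyrosine kinase for brain-derived neurotrophic factor, which is known for its work in neurons. TrkB dimerizes when its ligand binds and signals through adaptor proteins to the Ras, PI3-kinase and phospholipase C pathways, and shorter forms without the kinase domain are made from the same gene. Tcea3 encodes a tissue-restricted member of the TFIIS family. TFIIS proteins rescue RNA polymerase II that has stalled and slipped backward, by making it cut its own transcript. Smim22 encodes a small single-pass membrane protein, known in human breast cancer cells as CASIMO1, which binds the sterol synthesis enzyme squalene epoxidase.

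Ntrk2 (ENSMUSG00000055254) lies on the plus strand of chromosome 13 of GRCm38 from 58806569 to 59133970, and its 10 annotated transcripts cover 19292 bases of exon. Smim22 (ENSMUSG00000096215) is far shorter, on the plus strand of chromosome 16 from 5007288 to 5008309 with 561 bases of exon. Tcea3 (ENSMUSG00000001604) lies on the plus strand of chromosome 4 from 136247729 to 136274898 with 1400 bases of exon. No other protein-coding gene overlaps any of the 3, while 4 non-coding genes overlap Ntrk2, of which 3 are on the other strand. Counts per gene do not separate the kinase form of TrkB from its short forms.

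The promoters are shown because the levels of the 3 genes were low in the same libraries. The sequences are RefSeq GRCm38.p6, plus strand, at chr13:58806319-58806471 for Ntrk2, chr16:5007038-5007287 for Smim22 and chr4:136247707-136247935 for Tcea3. Each run ends at the base before the first annotated start of an mRNA, which is the start meant below. The Tcea3 gene as placed above begins at 136247729, with an exon of a non-coding transcript. The Tcea3 run from that base on, with its CCAAT box, thus lies inside the gene. Capitals mark the motif matches that were found on either strand.
Ntrk2: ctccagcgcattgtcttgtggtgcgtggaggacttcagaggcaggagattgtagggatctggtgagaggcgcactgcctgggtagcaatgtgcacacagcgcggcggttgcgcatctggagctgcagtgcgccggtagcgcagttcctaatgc
Smim22: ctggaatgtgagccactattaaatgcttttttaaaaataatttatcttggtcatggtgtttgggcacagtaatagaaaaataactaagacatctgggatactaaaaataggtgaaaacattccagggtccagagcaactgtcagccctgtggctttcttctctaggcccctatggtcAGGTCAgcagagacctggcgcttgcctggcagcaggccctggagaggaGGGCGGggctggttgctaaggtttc
Tcea3: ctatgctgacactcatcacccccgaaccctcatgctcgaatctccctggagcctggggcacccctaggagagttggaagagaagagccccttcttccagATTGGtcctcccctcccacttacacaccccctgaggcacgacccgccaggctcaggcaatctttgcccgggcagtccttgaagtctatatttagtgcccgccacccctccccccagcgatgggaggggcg
In the Smim22 promoter the ROR element AGGTCA began 73 bases before the start and the GC box GGGCGG began 25 bases before it. The Tcea3 promoter held a CCAAT box on the minus strand, 130 bases before the start, and the printed Ntrk2 run held none of the motifs. Counted over whole windows of 300 bases, from 250 before to 50 after the RefSeq start, each of the 3 genes had 1 GC box, and those of Ntrk2 and Tcea3 were not in the printed runs. Of 27025 promoter windows of 300 bases, 16.04% held AGGTCA, 35.9% held GGGCGG and 37.9% held CCAAT, so each is a common match and a description only. Also searched, on both strands and without a match in the 3 runs or their windows, were the E-box CACGTG (7.24% of windows), the D-box TTATGTAA (0.955%), the STAT site TTCNNNGAA (8.47%), the cAMP response element TGACGTCA (1.88%), the TATA box TATAAA (14.2%), and the palindromic estrogen and glucocorticoid response elements (0.0666% and 0.0037%). A match of AGGTCA can overlap one of the estrogen element. The GC content was 60.8% for Ntrk2, 47.2% for Smim22 and 61.6% for Tcea3, against a median of 52.7% (quartiles 45.7% and 61.7%) over all windows. The GC box was the motif that all 3 windows shared.

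Each library held 12280709 to 17615185 counts on genes. Levels are given as CPM (counts scaled by TMM-normalized library size), because albumin mRNA took 20.5% to 27.8% of the counts at 16 dpc and 7.90% to 12.9% in the other groups. Cdkn1a, the gene of p21, stood at 347 to 648 CPM in AAV8-p21 samples at 8 dpc and 815 to 1664 CPM at 16 dpc, against 3.29 to 127 CPM in the AAV8-null libraries, so each library matched the vector of its label. The hepatocyte markers summed to 79687 CPM or more in every library.

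Ntrk2 was a low transcript in NP samples and was all but absent from AAV8-null samples at 16 dpc. Its counts in the NP libraries were 30, 47 and 109 (2.08, 2.86 and 7.62 CPM). In AAV8-null samples at 8 dpc they were 24, 30 and 9 (1.40, 1.79 and 0.468 CPM), below every NP library. At 16 dpc the AAV8-null libraries held 1, 0 and 0 counts. The mean was 4.19 ± 3.0 CPM (SD, n = 3) in NP samples and 1.22 ± 0.677 CPM at 8 dpc, and the 8 dpc mean was 29.1% of the NP mean. In AAV8-p21 samples Ntrk2 had 71, 21 and 64 counts at 8 dpc (3.5, 1.2 and 4.48 CPM) and 6, 6 and 7 counts at 16 dpc (0.511, 0.436 and 0.510 CPM). The AAV8-p21 libraries at 16 dpc thus lay close together, below each 8 dpc library apart from AAV8-null library 3 at 0.468 CPM, and above each AAV8-null library at 16 dpc.

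Summed over libraries and scaled to depth, Ntrk2 was 142-fold lower in AAV8-null samples at 16 dpc than in NP samples, with a 95% counting interval of 25.2 to 5636. That interval covers counting error only and is wide because 1 read stands for the whole 16 dpc group. It was 86.0-fold without NP library 3 and 92.5-fold without 16 dpc library 2. Without the library that held the 1 read the comparison is a lower bound, at least 31.9-fold lower, taken against 3 counts over the group. The fitted difference between AAV8-null samples at 8 dpc and NP samples was −1.78 on the log2 scale (SE 0.59), and the groups did not overlap, as was so in the same direction for 5.62% of the 12172 genes tested. The difference was −1.03 without NP library 3. Markers of other liver cells did not all move one way from NP to these 8 dpc libraries. Kupffer cell and macrophage markers had 6 of 9 genes above 0 (median log2 difference 0.05), and erythroid markers 4 of 5 (0.43). Bile duct markers had 2 of 6 above 0 (−0.22), and lymphocyte and neutrophil markers 3 of 6 (−0.02). Lower were the sinusoidal endothelial and the stellate cell and fibroblast markers. The sinusoidal endothelial markers summed to 153 to 204 CPM, against 209 to 374 CPM in NP samples, and the stellate cell and fibroblast markers to 190 to 292 CPM, against 325 to 405 CPM. All 9 tested sinusoidal endothelial genes were below 0 from NP to 8 dpc (median log2 difference −0.82), as were 12 of 13 stellate cell and fibroblast genes (−0.49). No gene of either list was called there by edgeR or DESeq2, with 8 and 5 at an unadjusted p under 0.05 in edgeR and 6 and 2 called by limma voom. Of all genes tested edgeR called 0 (0%) in this comparison. Their part in the lower Ntrk2 level was not tested.

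Smim22 was undetected in AAV8-null samples at 16 dpc, while at 8 dpc its range lay within that of the NP samples. It had 51, 17 and 13 counts in the NP libraries (3.53, 1.04 and 0.909 CPM) and 41, 40 and 32 in AAV8-null samples at 8 dpc (2.39, 2.38 and 1.66 CPM). The first NP library lay above the 8 dpc values and the other two below them, so the groups overlapped. At 16 dpc all 3 AAV8-null libraries held 0 counts, which allows up to 0.0871 CPM (3 counts over the group). In AAV8-p21 samples Smim22 had 60, 33 and 61 counts at 8 dpc (2.96, 1.88 and 4.27 CPM) and 3, 5 and 1 counts at 16 dpc (0.256, 0.363 and 0.0728 CPM). A few reads were thus present in each AAV8-p21 library at 16 dpc and in none of the AAV8-null libraries of that stage.

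Against 3 counts over the group, Smim22 was at least 20.6-fold lower in AAV8-null samples at 16 dpc than in NP samples, and at least 24.4-fold lower than in AAV8-null samples at 8 dpc. The first of these bounds was 11.2 without NP library 1 and 13.4 to 13.9 without any 1 of the 16 dpc libraries, and the second was 15.9 to 16.5 without any 1 of the latter. The fitted log2 difference between AAV8-null samples at 8 dpc and NP samples was 0.23 (SE 0.52). It was 1.13 without NP library 1, and −0.05 and −0.08 without NP libraries 2 and 3, so neither its size nor its sign was stable.

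Tcea3 was the most abundant of the 3 and kept a measurable level in every library. Its NP values were 70.6, 23.6 and 32.8 CPM (1019, 388 and 469 counts), and those of AAV8-null samples at 8 dpc were 28.5, 27.6 and 21.3 CPM. At 16 dpc the AAV8-null libraries stood at 6.15, 3.67 and 2.05 CPM (69, 44 and 23 counts), below every library of both other AAV8-null groups, as were 12.3% of all genes tested against NP and 12.7% against 8 dpc. In AAV8-p21 samples the values were 39.3, 24.9 and 36.4 CPM at 8 dpc and 22.1, 14.5 and 2.62 CPM at 16 dpc (260, 199 and 36 counts). Library c of the last group lay among the AAV8-null libraries of the same stage, while a and b lay above them and below each AAV8-p21 library at 8 dpc. The fitted log2 difference was −3.42 (SE 0.62, a 10.7-fold difference) between AAV8-null samples at 16 dpc and NP samples, −0.71 (SE 0.55) between 8 dpc and NP, and −2.70 (SE 0.61) between 16 dpc and 8 dpc. Without 1 library these ran from −3.88 to −2.83, −1.002 to −0.13 and −3.17 to −2.40. The difference between 8 dpc and NP was −0.13 without NP library 1 and −0.04 with limma voom, so it rested on that library.

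**Figure D1:**
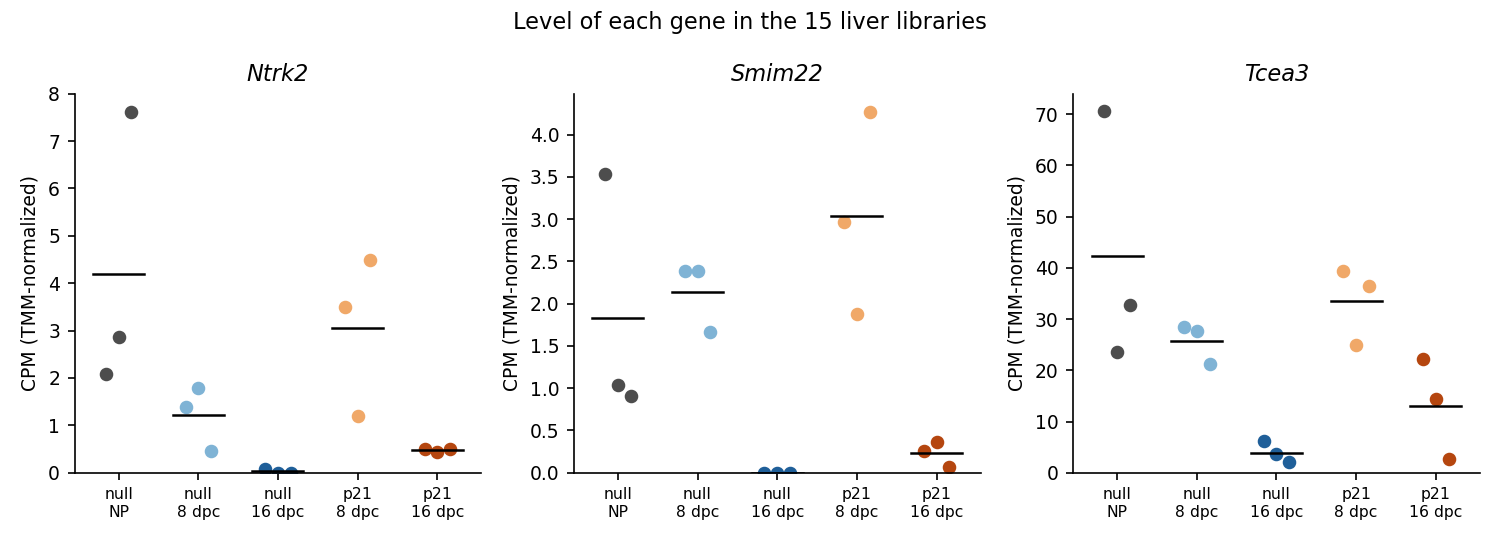
CPM (TMM-normalized, linear axes from 0) of Ntrk2, Smim22 and Tcea3 in the 15 liver libraries, 3 per group. Points are libraries and lines are group means. The mean of AAV8-null samples at 16 dpc is the lowest for each gene, with 0 counts for Smim22 in all 3, and the AAV8-p21 means at 16 dpc lie between those of AAV8-null at 16 dpc and those of the 8 dpc groups.

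In the order of all 12172 genes tested by the fitted difference between AAV8-null samples at 16 dpc and NP samples, Smim22 was at place 1 from the bottom, Ntrk2 at place 2 and Tcea3 at place 28. Just outside the first pair stood Gm3776, with 23 counts over the NP libraries and 0 at 16 dpc. Ildr2 and the clock output gene Dbp stood on either side of Tcea3, with mean levels of 64.0 and 50.0 CPM in NP samples and 5.88 and 4.81 CPM at 16 dpc. Place depends on how low a gene can be counted, since the fitted value of a gene at 0 is no bound. Of all genes tested in this comparison, 251 were called lower (2.06%).

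The 2 AAV8-p21 groups were not used to choose the genes, so the step from 8 dpc to 16 dpc was tested in them. Smim22 and Ntrk2 fell from 8 dpc to 16 dpc in AAV8-p21 samples, and Tcea3 did not pass the test. Smim22 changed by −3.67 on the log2 scale (SE 0.67, 95% interval −5.10 to −2.25, adjusted p = 0.00996 in edgeR's quasi-likelihood test over all genes), a 12.7-fold fall. The change of Ntrk2 was −2.63 (SE 0.67, 95% interval −4.06 to −1.21, adjusted p = 0.0448), a 6.2-fold fall. Tcea3 differed by −1.36 (SE 0.56, 95% interval −2.57 to −0.16, adjusted p = 0.237, unadjusted p = 0.0296 in the edgeR fit). Called genes had an adjusted p under 0.05 and a log2 change past 1 in either direction, and 1.01% of the genes tested were called lower in this comparison. The 3 libraries at 16 dpc lay below the 3 at 8 dpc for each of the 3 genes, as they did for 11.3% of all genes tested, and the exact two-sided permutation p was 0.1 for each, the smallest that 3 against 3 allows.

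The call of Ntrk2 stands near the threshold. In edgeR fits that each left out 1 library, its adjusted p was 0.148 without AAV8-p21 8 dpc library 1, 0.10 without library 3, and 0.109, 0.153 and 0.129 without AAV8-p21 16 dpc libraries a, b and c, while it was 0.0357 without 8 dpc library 2. The direction held in each of these fits, with log2 changes of −3.02 to −2.25, and with sample weights in limma voom the change was −2.07 (adjusted p = 0.0823). Smim22 kept its call in all 6 of these leave-one-out fits, and Tcea3 was called in none (−1.97 to −0.87 on the log2 scale).

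At 8 dpc the AAV8-p21 and AAV8-null groups overlapped for each gene, and none of the 3 was called. Ntrk2 was higher in AAV8-p21 samples by 1.33 on the log2 scale (SE 0.59, 95% interval 0.08 to 2.58, adjusted p = 0.921, unadjusted p = 0.0390 in edgeR). The difference was 0.50 for Smim22 (SE 0.51, 95% interval −0.59 to 1.59, adjusted p = 1 in edgeR) and 0.38 for Tcea3 (SE 0.55, 95% interval −0.79 to 1.55, adjusted p = 1 in edgeR). Exact permutation p-values were 0.3, 0.4 and 0.3, and neither DESeq2 nor limma voom called any of them. The intervals leave room for a difference of 2-fold in each gene. The 13 stellate cell and fibroblast markers were each above 0 in this comparison (median 0.71, sums of 325 to 396 CPM with AAV8-p21), with none called by edgeR, DESeq2 or limma voom and 6 at an unadjusted p under 0.05, and their part in the values was not tested. In this comparison 3 of the 12172 genes were called (0.0246%).

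**Figure D2:**
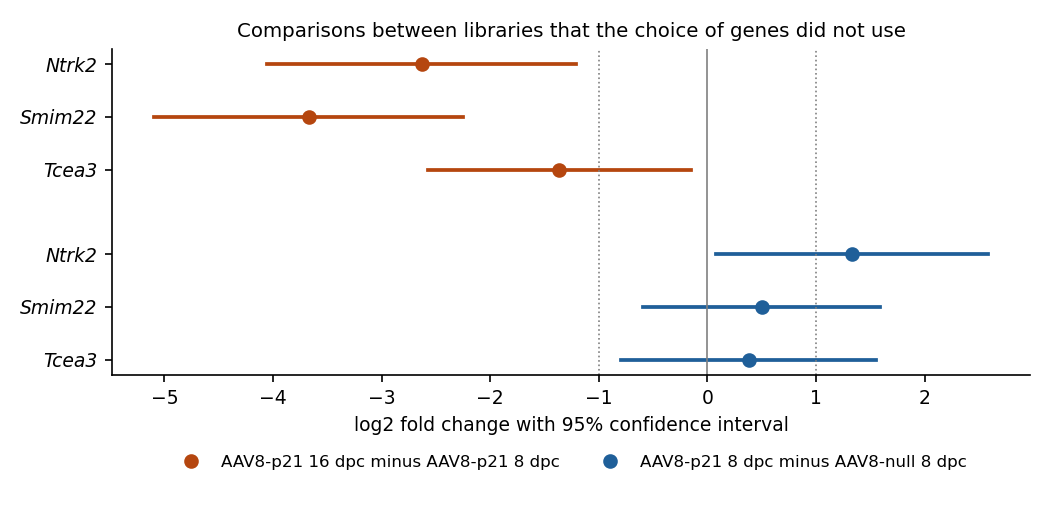
Fitted log2 fold change (points) and 95% confidence interval (lines) of Ntrk2, Smim22 and Tcea3 between AAV8-p21 samples at 16 dpc and 8 dpc (orange) and between AAV8-p21 and AAV8-null samples at 8 dpc (blue), from 3 libraries per group. Dotted lines mark 1 and −1. The 3 intervals of the stage comparison lie below 0, and those of the vector comparison at 8 dpc are centred between 0.38 and 1.33.

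At 16 dpc the vector comparison rests on libraries that were used to choose the genes, so its values are given without a test. Ntrk2 had 19 counts over the 3 AAV8-p21 libraries and 1 over the 3 AAV8-null libraries, a depth-scaled ratio of 16.7 with a 95% counting interval of 2.65 to 693. The ratio was at least 3.75 without the AAV8-null library that held the 1 read, and it was 10.9 without AAV8-null library 2. The 2 groups did not overlap for Ntrk2 or Smim22, as was so with AAV8-p21 higher for 6.58% of all genes tested. For Smim22 that rests on 3, 5 and 1 counts against 0 in each AAV8-null library. Libraries a and c, at 0.256 and 0.0728 CPM, did not pass the 0.267 CPM of 3 counts in AAV8-null library 1. Smim22 had 9 counts against 0, at least 2.64-fold higher in AAV8-p21 samples, or at least 1.72-fold to 1.81-fold without any 1 of the AAV8-null libraries or AAV8-p21 library b. Tcea3 was 3.29-fold higher in AAV8-p21 samples (log2 difference 1.72, SE 0.61), with overlap through AAV8-p21 library c. The log2 difference was 1.11 without library a and 2.21 without library c. All of these lie above 1, but low values in the AAV8-null libraries were what the genes were chosen for.

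Seen from the NP level, the 3 genes differed in how much of it each group kept. In AAV8-null samples at 8 dpc the mean was 29.1% of the NP mean for Ntrk2, 60.9% for Tcea3 and 117% for Smim22. In AAV8-p21 samples at 8 dpc it was 73.1%, 79.2% and 166% in the same order, and this group overlapped the NP libraries for each gene. At 16 dpc the AAV8-p21 mean was 11.6% for Ntrk2, 12.6% for Smim22 and 30.9% for Tcea3, and the AAV8-null mean was 0.710%, 0% and 9.34%. Fitted against NP samples, AAV8-p21 samples at 16 dpc differed by −3.09 (SE 0.67) for Ntrk2, −2.94 (SE 0.68) for Smim22 and −1.70 (SE 0.57) for Tcea3 on the log2 scale, with no overlap for any of the 3, as in the same direction for 10.3% of all genes tested. Single libraries moved these values. Ntrk2 was at −2.33 without NP library 3, Smim22 at −2.04 without NP library 1 and −1.76 with limma voom, and Tcea3 at −1.11 without NP library 1, −2.31 without AAV8-p21 library a and −1.21 without library c. The comparison of AAV8-p21 samples at 8 dpc with NP samples changed sign for Ntrk2 without NP library 3 (from −0.45 to 0.30) and for Tcea3 without NP library 1 (from −0.34 to 0.25), and that of Smim22 went from 0.73 to 1.63 without NP library 1.

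By mean CPM, Ntrk2 was highest in NP samples, followed by AAV8-p21 at 8 dpc, AAV8-null at 8 dpc, AAV8-p21 at 16 dpc and AAV8-null at 16 dpc. Tcea3 had the same order of groups. Smim22 was highest in AAV8-p21 samples at 8 dpc, followed by AAV8-null at 8 dpc, NP, AAV8-p21 at 16 dpc and AAV8-null at 16 dpc. Neighbouring groups in these orders overlapped, with 3 exceptions. The 16 dpc groups did not overlap each other for Ntrk2 or Smim22, and AAV8-p21 at 16 dpc did not overlap NP for Smim22. Of all genes tested 6.58% and 10.3% did not overlap in the same directions. For Smim22 the 16 dpc groups held 3, 5 and 1 counts against 0, so that separation lies near the counting floor. The steps between the other neighbours thus lay within the spread of the libraries.

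Single libraries stood apart in some groups, and not in the same way for each gene. NP library 1 was the highest NP library for Smim22 and Tcea3 and the lowest for Ntrk2. AAV8-p21 library c at 16 dpc was the lowest of its group for Smim22 and Tcea3 and was level with the others for Ntrk2. AAV8-null library 3 at 8 dpc was the lowest of its group for all 3 genes, at 0.468 CPM for Ntrk2, 1.66 CPM for Smim22 and 21.3 CPM for Tcea3. It also stood apart in summed levels of other genes, with 14.8 CPM for the proliferation genes against 135 and 142 CPM in the other two libraries, 31293 CPM for fasting and PPAR-alpha targets against 13295 and 10784 CPM, and 3427 CPM for female-biased liver genes against 10370 and 12039 CPM. The part of these differences in the levels of the 3 genes was not tested. Over the 15 libraries the correlation of log2 CPM was 0.91 between Smim22 and Tcea3, 0.86 between Ntrk2 and Smim22 and 0.84 between Ntrk2 and Tcea3 (Pearson's r, a description across libraries that share the group differences by which the genes were chosen). With the group means removed it was 0.78 for Smim22 and Tcea3, 0.19 for Ntrk2 and Tcea3 and 0.01 for Ntrk2 and Smim22. Within groups the correlation was thus higher for Smim22 with Tcea3 than for the pairs with Ntrk2. NP library 1 and AAV8-p21 library c at 16 dpc, which stood apart for both Smim22 and Tcea3, weigh heavily in the 0.78. The within-group correlation was not computed without them, so it is a description only.

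The core clock genes differed between libraries of the same group, and the sources used here give no hour of dissection. The mean log2 CPM of the morning genes Arntl, Npas2 and Clock minus that of the evening genes Dbp, Tef, Nr1d1, Nr1d2, Per3 and Ciart was 0.56, −4.75 and −4.99 in the NP libraries, and −5.90, −5.08 and −2.94 in AAV8-p21 samples at 16 dpc. In AAV8-null samples it was 1.47, 1.58 and −1.32 at 8 dpc and 2.58, −2.34 and 2.15 at 16 dpc, whereas the 8 dpc libraries with AAV8-p21 stood at 3.33, 3.12 and −3.31. The part of clock phase in the levels of the 3 genes, within groups or between them, was not tested.

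**Figure D3:**
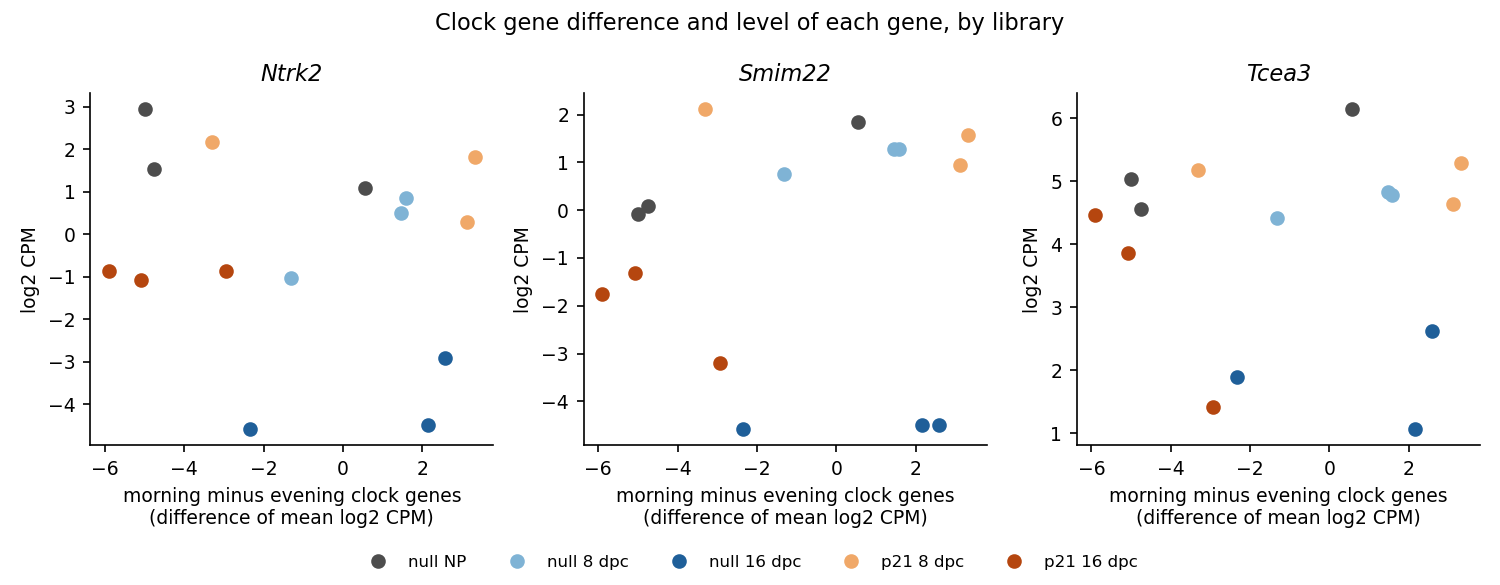
Level of Ntrk2, Smim22 and Tcea3 (vertical axes, log2 CPM with a pseudocount of 0.5 counts) against the clock gene difference (horizontal axis, mean log2 CPM of 3 morning genes minus that of 6 evening genes) in the 15 libraries, coloured by group. Clock values run from −5.90 to 3.33 and differ within each group.

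Among the neurotrophins, the ligands of the Trk receptors, 3 genes are described, and the liver libraries held little RNA of them. Bdnf and Ntf5, the ligand genes of TrkB, had group means of 0.147 to 0.392 CPM and 0 to 0.0526 CPM and did not pass the filter on low counts. For the gene lists, the 2 stage comparisons are 16 dpc with 8 dpc in AAV8-p21 samples and 16 dpc with NP in AAV8-null samples, and 16 dpc with 8 dpc in AAV8-null samples is given apart. Ntf3, which encodes neurotrophin-3, was tested and was called in none of the 3 by edgeR, DESeq2 or limma voom. Its unadjusted p was under 0.05 in AAV8-null samples between 16 dpc and 8 dpc alone, where it differed by 2.08 on the log2 scale (adjusted p = 0.122 in edgeR). It differed by 0.85 on the log2 scale between AAV8-p21 samples at 16 dpc and 8 dpc (adjusted p = 0.679 in edgeR).

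Of 8 neurotrophin receptor and co-receptor genes beside Ntrk2, 6 were tested, and 1 rose from 8 dpc to 16 dpc in AAV8-p21 samples while none was called lower. From NP to 16 dpc in AAV8-null samples 1 of the 6 was called higher as well. Of all genes tested 1.73% were called higher in the first comparison and 2.85% in the second. The called gene, Sorcs3, passed the filter on low counts through the 16 dpc groups, where it was high. Its calls could thus go only that way and are no result about the receptors, and the medians include it. The median log2 difference of the 6 was 0.13 in AAV8-p21 samples, against −0.02 over all genes tested, and 0.93 in AAV8-null samples, against −0.03. These calls are edgeR's, and DESeq2 and limma voom called 1 and 2 of the 6 in the first comparison and 2 each in the second.

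Sorcs3, a sorting receptor of the sortilin family, was the gene that rose in both comparisons, by 5.29 in AAV8-p21 samples (SE 1.12, adjusted p = 0.0186 in edgeR). The NP libraries held 1, 0 and 0 counts and the AAV8-null libraries at 16 dpc 95, 38 and 10, a depth-scaled ratio of 187 with a 95% counting interval of 33.1 to 7453 (adjusted p = 0.0113 in edgeR). Sorcs3 passed the filter on low counts through the 16 dpc groups, so its call is a description of a gene that had to differ. At 16 dpc it varied widely, at 8.47, 3.17 and 0.890 CPM in AAV8-null samples and 11.4, 7.12 and 0.364 CPM in AAV8-p21 samples, while the other libraries lay at 0.197 CPM or less. Ngfr (the p75 neurotrophin receptor), Sort1, Sorcs2, Kidins220 and Sorl1 were tested and not called by edgeR, and Ntrk3 and Sorcs1 did not pass the filter. Per kilobase of exon, mean Ntrk2 was 0.217 CPM in NP samples and 0.00154 CPM in AAV8-null samples at 16 dpc.

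Downstream of the receptor, none of 32 tested Trk adaptors and effectors was called in either stage comparison by edgeR, DESeq2 or limma voom (3 at an unadjusted p under 0.05 in each), and their median log2 difference was 0.00 in AAV8-p21 samples and 0.13 from NP to 16 dpc in AAV8-null samples. Between 16 dpc and 8 dpc in AAV8-null samples 1 of the 32 was called by each of these tools, with 5 at an unadjusted p under 0.05. It was Rps6ka1, which encodes a ribosomal S6 kinase and differed by −1.12 on the log2 scale (SE 0.23, adjusted p = 0.0110 in edgeR), where 2.88% of all genes tested were called lower and 2.53% higher. The values farthest from 0 in AAV8-p21 samples were those of the adaptor Gab2 (0.73, SE 0.38) and of Plcg1, a phospholipase C that binds Trk receptors (0.71, SE 0.21).

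Among the TFIIS genes, Tcea1, the ubiquitous form, and Tcea2 were tested, and neither was called in the stage comparisons by edgeR, DESeq2 or limma voom or had an unadjusted p under 0.05. Tcea1 differed by 0.44 (SE 0.25, adjusted p = 0.344 in edgeR) from NP to 16 dpc in AAV8-null samples, and by 0.16 between stages in AAV8-p21 samples (adjusted p = 0.817 in edgeR). Per kilobase of exon, Tcea3 was the highest TFIIS gene in NP samples, at a mean of 30.2 CPM (16.9 to 50.4) against 9.07 CPM for Tcea1 (6.08 to 10.9). In AAV8-null samples at 16 dpc the order was the other way round, at 2.82 CPM for Tcea3 (1.46 to 4.39) and 12.3 CPM for Tcea1 (10.8 to 14.1), and the libraries of the 2 genes did not overlap at either stage. In AAV8-p21 samples at 16 dpc they overlapped, with means of 9.34 and 10.05 CPM. Tcea2 stayed between 0.0844 and 0.406 CPM per kilobase in every library. Of 35 tested genes of other RNA polymerase II elongation factors none was called in the stage comparisons by edgeR, DESeq2 or limma voom, with 3 and 4 at an unadjusted p under 0.05. Their median log2 difference was −0.04 in AAV8-p21 samples and 0.08 in AAV8-null samples, and the value farthest from 0 in AAV8-p21 samples was that of Ell2 (0.90, SE 0.28).

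**Figure D4:**
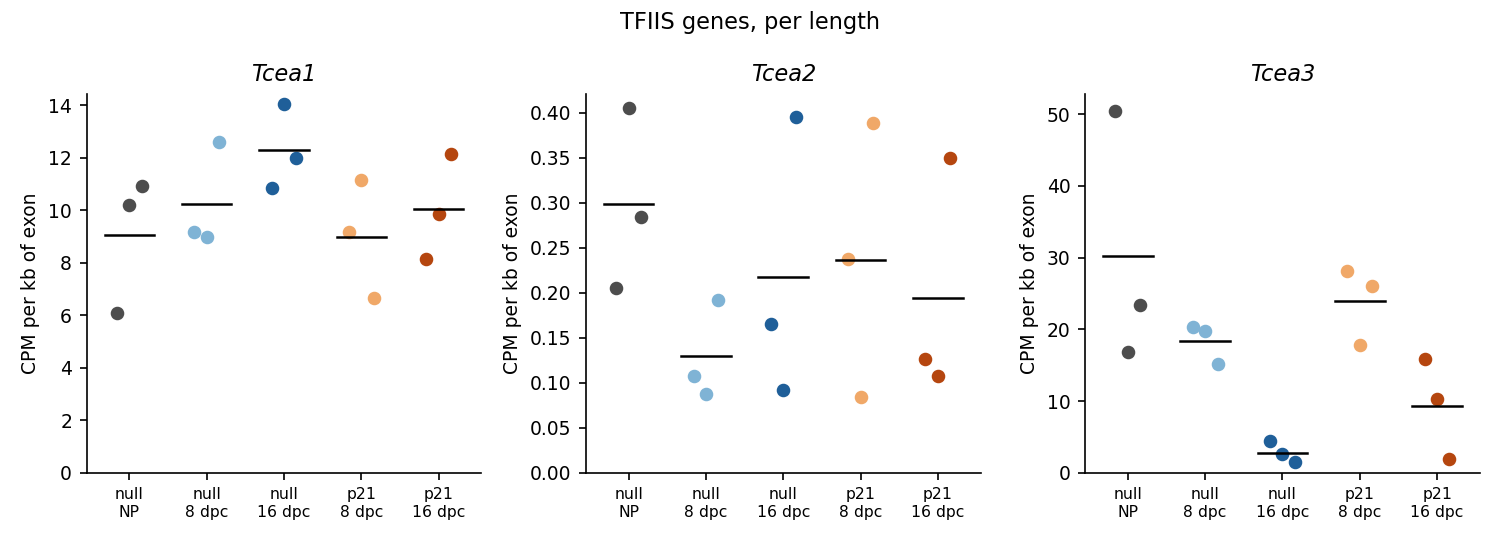
CPM per kilobase of exon (linear axes from 0, different in each panel) of the TFIIS genes Tcea1, Tcea2 and Tcea3 in the 15 libraries, with group means as lines. At 16 dpc in AAV8-null samples the Tcea1 mean is 12.3 and the Tcea3 mean 2.82, while in NP samples they are 9.07 and 30.2.

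Smim22 has no family in the sense of shared sequence, since the Smim names only mark small membrane proteins. Of 28 other genes with such a name 17 were tested, and none was called in the stage comparisons by edgeR or DESeq2 (1 and 2 at an unadjusted p under 0.05, and 1 call in each by limma voom), with median log2 differences of 0.07 in AAV8-p21 samples and 0.08 in AAV8-null samples. Smim24 was the farthest from 0 from NP to 16 dpc in AAV8-null samples (−1.56, SE 0.98). The 18 sterol synthesis genes that work with squalene epoxidase, Sqle among them, had 16 members below 0 from 8 dpc to 16 dpc in AAV8-p21 samples (median −0.72) and 12 below 0 from NP to 16 dpc in AAV8-null samples (median −0.17), and none was called by edgeR or DESeq2. In AAV8-p21 samples 1 had an unadjusted p under 0.05 and limma voom called 1, and in AAV8-null samples there was none of either. Between vectors the same genes lay higher with AAV8-p21, all 18 at 8 dpc (median 1.29) and 17 of 18 at 16 dpc (median 0.78). None was called by edgeR, DESeq2 or limma voom in either, with 4 and 2 at an unadjusted p under 0.05, where edgeR called 0.0246% and 0.0739% of all genes tested. Hmgcs1, an early enzyme of the mevalonate pathway, had the value farthest from 0 in AAV8-p21 samples (−1.31, SE 0.67, adjusted p = 0.353 in edgeR).

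The gene next to Smim22 moved the other way. Rogdi (ENSMUSG00000022540), which is mutated in the human epilepsy disorder Kohlschütter-Tönz syndrome, lies on the minus strand of chromosome 16 from 5008730 to 5013553, with 420 bases between its end and that of Smim22. Rogdi stood at 14.8, 15.5 and 13.0 CPM in NP samples, 11.2, 8.28 and 13.6 CPM in AAV8-null samples at 8 dpc and 147, 123 and 117 CPM at 16 dpc. The AAV8-p21 libraries held 9.48, 10.7 and 14.6 CPM at 8 dpc and rose to 115, 110 and 129 CPM at 16 dpc. The rise was 3.16 on the log2 scale from NP to 16 dpc in AAV8-null samples (SE 0.22, adjusted p = 1.6e-06 in edgeR) and 3.35 from 8 dpc to 16 dpc in AAV8-p21 samples (SE 0.22, adjusted p = 1.9e-06 in edgeR). The Rogdi groups did not overlap in either comparison, as for 12.1% and 11.6% of all genes tested in the same direction. The 16 dpc libraries thus held at most 5 counts of Smim22 and more than 100 CPM of Rogdi.

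**Figure D5:**
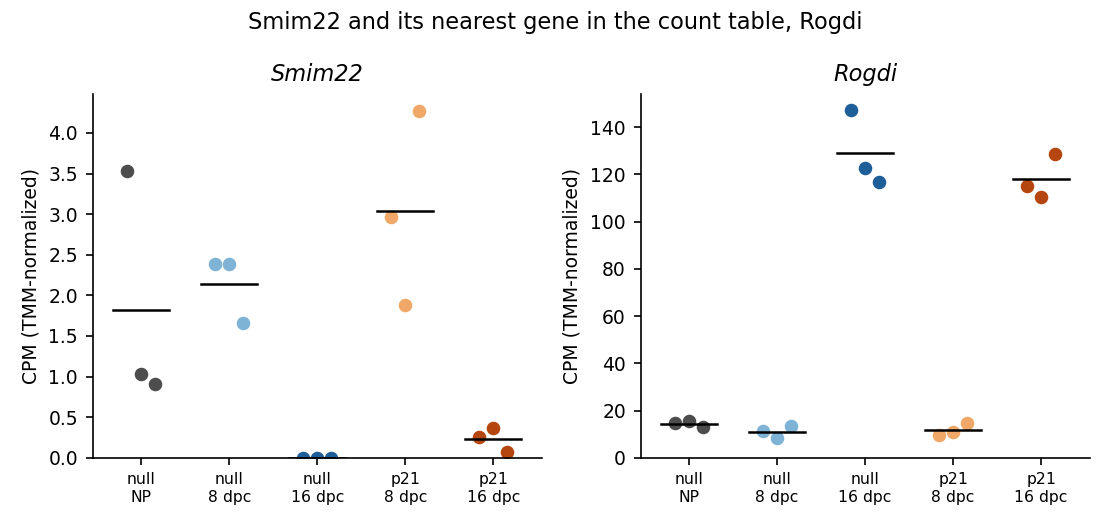
CPM (linear axes from 0) of Smim22 and of Rogdi, the nearest gene of the count table on chromosome 16, in the 15 libraries, with group means as lines. At 16 dpc Smim22 lies at 0 to 0.363 CPM and Rogdi at 110 to 147 CPM, while in the other groups Rogdi lies at 8.28 to 15.5 CPM.

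Near Ntrk2, Agtpbp1, which encodes an enzyme that removes glutamate residues from tubulin, rose by 1.45 from NP to 16 dpc in AAV8-null samples (SE 0.33, adjusted p = 0.0181 in edgeR) and by 1.58 between stages in AAV8-p21 samples (SE 0.33, adjusted p = 0.0171 in edgeR). It lies 311771 bases from the end of Ntrk2. On the other side Slc28a3 did not pass the filter. Around Tcea3, Asap3 differed by −0.41 (SE 0.37) and 0.54 (SE 0.36) in the 2 comparisons and Zfp46 by −0.23 (SE 0.26) and −0.04 (SE 0.26), with no call, and Septin12 beside Smim22 had a mean of 0 in each group. No tested neighbour was called lower at 16 dpc in these edgeR fits.

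The genes whose log2 CPM followed each gene most closely over the 15 libraries were named by Pearson's r, as a description of libraries that share group differences and normalization. For Ntrk2 these were Flt3l (r = 0.96), which encodes the ligand of the cytokine receptor FLT3, Slc25a11 (0.93), Izumo4 (0.91), Gm4756 (0.90) and Mthfd1 (0.90). With group means removed, r for these genes ran from 0.19 for Gm4756 to 0.77 for Flt3l. Flt3l was at 3.67, 4.20 and 3.85 CPM in NP samples, 1.07, 0.667 and 0.712 CPM in AAV8-null samples and 1.79, 1.45 and 1.67 CPM in AAV8-p21 samples at 16 dpc. The genes with the lowest r to Ntrk2 were Igfbp1 (−0.94), an insulin-like growth factor binding protein of the liver, Atg12 (−0.91) and Arl15 (−0.91).

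For Smim22 the highest r were those of Ociad2 (0.97), Faah (0.97), which breaks down the lipid messenger anandamide, Usp18 (0.97), Anxa6 (0.97) and Samd9l (0.96), and the lowest those of Uck2 (−0.97), Cerk (−0.97), the ceramide kinase, and Vwf (−0.97), the von Willebrand factor. Ociad2 was at 12.2, 11.1 and 10.1 CPM in NP samples and 2.59, 1.92 and 1.69 CPM in AAV8-null samples at 16 dpc. Cerk was at 2.70, 5.54 and 4.48 CPM in NP samples and 35.6, 45.7 and 44.7 CPM in AAV8-null samples at 16 dpc, and at 13.5, 17.7 and 46.7 CPM in AAV8-p21 samples at 16 dpc. Library c of AAV8-p21 lay with the AAV8-null libraries, as it did for Tcea3.

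For Tcea3 the highest r were those of Pipox (0.97), a peroxisomal enzyme of pipecolic acid and sarcosine breakdown, Gsta4 (0.96), a glutathione transferase, L3hypdh (0.96), Dhrs7 (0.94) and Abhd14b (0.94). With group means removed r was 0.93 for Pipox and 0.97 for Gsta4. These values are a description only, since the genes were picked by r over the same libraries. Gsta4 was at 19.3, 12.3 and 6.59 CPM in AAV8-null samples and 48.3, 32.9 and 10.9 CPM in AAV8-p21 samples at 16 dpc, with library c lowest as for Tcea3. The lowest r were those of 1600012H06Rik, Cald1 and Rab6a, each −0.95.

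Whole liver holds several cell types, and in bulk RNA fewer cells of a type and less RNA per cell cannot be told apart. The bile duct markers summed to 28.0 to 40.9 CPM in NP samples and 18.3 to 29.9 CPM in AAV8-null samples at 16 dpc, and to 45.4 to 64.5 CPM and 30.8 to 51.0 CPM in AAV8-p21 samples at 8 dpc and 16 dpc. None of 6 tested bile duct markers was called in either stage comparison by edgeR, DESeq2 or limma voom, with 0 and 2 at an unadjusted p under 0.05. Between vectors their sums did not overlap, at 45.4 to 64.5 CPM with AAV8-p21 against 27.8 to 36.8 CPM with AAV8-null at 8 dpc, and 30.8 to 51.0 against 18.3 to 29.9 CPM at 16 dpc. Of all genes tested, 5.51% and 6.58% did not overlap with AAV8-p21 higher. By edgeR 0 of 6 were called in these vector comparisons, where 0.0246% and 0.0739% of all genes tested were called, with 1 and 2 at an unadjusted p under 0.05, and DESeq2 and limma voom each called 0 at 8 dpc and 1 at 16 dpc. The 9 nerve and Schwann cell markers described here summed to 0.799 to 2.17 CPM in the libraries, of the order of Ntrk2 itself outside the 16 dpc groups. Their sums were 1.26 to 1.89 CPM in NP samples and 0.981 to 2.17 CPM in AAV8-null samples at 16 dpc. Of the 9, Sox10, S100b, Nefl and Snap25 were at 0 in every library, and Rbfox3 was tested and not called in the stage comparisons by edgeR, DESeq2 or limma voom, with an unadjusted p above 0.05 in both edgeR fits. The stellate cell and fibroblast markers summed to 325 to 405 CPM in NP samples and 353 to 477 CPM in AAV8-null samples at 16 dpc. Of the 13, edgeR called 1 there, the retinol-storing enzyme gene Lrat, lower by 1.41 on the log2 scale (SE 0.35, adjusted p = 0.0279 in edgeR). DESeq2 and limma voom each called 2, and edgeR called 2.06% of all genes tested lower. In AAV8-p21 samples these sums were 325 to 396 CPM at 8 dpc and 391 to 415 CPM at 16 dpc, with 0 of 13 called by edgeR, DESeq2 or limma voom and 1 at an unadjusted p under 0.05. Between 16 dpc and 8 dpc in AAV8-null samples edgeR called 1 stellate gene, Dcn (1.04, SE 0.22, adjusted p = 0.0144), and 1 sinusoidal endothelial gene, Pecam1 (1.16, SE 0.29, adjusted p = 0.0318), both higher, where 2.53% of all genes tested were called higher. Of the stellate genes 12 of 13 had a value above 0 there (median 0.62), with 5 at an unadjusted p under 0.05, and DESeq2 called 3 and limma voom 1. All 9 sinusoidal genes were above 0 (median 0.74), with 5 at an unadjusted p under 0.05, and DESeq2 called 1 and limma voom 2. The part of cell composition in the levels of the 3 genes was not tested beyond these values.

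By edgeR, other markers from NP to 16 dpc in AAV8-null samples gave 3 hepatocyte genes higher and 1 lower of 9 tested, 2 lymphocyte and neutrophil genes higher of 6, 2 erythroid genes higher of 5, and none called of 9 sinusoidal endothelial genes (1 at an unadjusted p under 0.05) and 9 Kupffer cell genes (0) by edgeR, DESeq2 or limma voom, where 2.85% of all genes tested were called higher and 2.06% lower. From 8 dpc to 16 dpc in AAV8-p21 samples, 3 hepatocyte genes were higher, among them Alb by 1.33 (SE 0.24) and Asgr1 by 1.23 (SE 0.22), and 1 erythroid gene, Alas2, where 1.73% of all genes tested were called higher and 1.01% lower. All 9 Kupffer cell and macrophage markers were below 0 there (median −0.45), and 8 of 9 sinusoidal endothelial markers above 0 (0.32). None of either list was called by edgeR, DESeq2 or limma voom, and their part in the levels of the 3 genes was not tested. Of 25 female-biased liver genes edgeR called 2 higher and 2 lower in that comparison, and of 23 tested male-biased genes 3 higher and none lower. DESeq2 called 6 and 7 genes of these lists, and limma voom 8 of each. Of 15 fasting and PPAR-alpha targets, edgeR called Cyp4a31 alone there, higher by 2.13 (SE 0.50), while limma voom called 5 and 6 had an unadjusted p under 0.05 in edgeR, and 14 of 15 were above 0 (median 0.87). From NP to 16 dpc in AAV8-null samples edgeR called 3 of them higher, Pdk4, Plin2 and Cyp4a31, with 13 of 15 above 0 (median 0.86) and 6 at an unadjusted p under 0.05, while DESeq2 called 3 and limma voom 5. Between vectors at 16 dpc all 15 were lower with AAV8-p21 in fitted value (median −1.08), and edgeR called none, with 6 at an unadjusted p under 0.05, while DESeq2 called 1 and limma voom 0. The proliferation genes had their highest mean in AAV8-null samples at 8 dpc, where they summed to 135, 142 and 14.8 CPM in libraries 1 to 3, so that library 3 overlapped the other groups, against 5.00 to 25.9 CPM in NP samples, 7.90 to 25.4 CPM in AAV8-p21 samples at 8 dpc and 3.33 to 23.1 CPM in AAV8-null samples at 16 dpc. Between 16 dpc and 8 dpc in AAV8-null samples 4 of 10 were called lower by edgeR, Top2a, Ccnb1, Birc5 and Hmmr, with all 10 at an unadjusted p under 0.05 (median −3.30) and 6 called by DESeq2 and by limma voom, where edgeR called 2.88% of all genes tested lower. From NP to 8 dpc in AAV8-null samples edgeR called none, with 10 at an unadjusted p under 0.05 (median 2.88), while DESeq2 called 2 and limma voom 10, where edgeR called 0% of all genes tested and limma voom 883 genes in all. Between vectors at 8 dpc edgeR called none, with 9 at an unadjusted p under 0.05 (median −2.40), while DESeq2 called 1 and limma voom 4, where edgeR called 0.0246% of all genes tested and limma voom 88 genes in all. In the 2 stage comparisons none was called by edgeR, DESeq2 or limma voom and none had an unadjusted p under 0.05 in edgeR, with a median log2 difference of −1.14 in AAV8-p21 samples. None of the 9 clock genes was called by edgeR in these 2 comparisons, with 6 at an unadjusted p under 0.05 in AAV8-p21 samples, where DESeq2 called 1 and limma voom 7, and with 4 in AAV8-null samples, where they called 0 and 6. The medians of the morning and evening clock genes were −3.76 and 1.90 in AAV8-p21 samples from 8 dpc to 16 dpc, and 0.76 and −1.99 in AAV8-null samples from NP to 16 dpc.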

How the data were processed

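RNA from 15 mouse livers was sequenced in 5 groups of 3. The authors used cutadapt 1.14 for trimming, HISAT2 2.1.0 for alignment to mm10, and counted unique reads of protein-coding genes with HTSeq 0.12.4, and the deposited values are these raw counts, without normalization. Stranded kits were used, but whether counting used strand is not given in the sources used here. Columns of the AAV8-p21 16 dpc group carry other numbers than the labels, so its libraries were named a, b and c without order. The labels do not say that libraries came from separate litters or days, so p-values measure the spread between these libraries.

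Counts were fitted with edgeR 4.0.16 in R 4.3.3 (TMM, filterByExpr with minimum count 10, 12172 genes tested, 1 model of all 15 libraries with 10 residual degrees of freedom, quasi-likelihood test, Benjamini-Hochberg adjustment). A gene was called with an adjusted p under 0.05 and a log2 fold change past 1. The 3 genes were tested only between groups that their choice did not use. For the 3 genes and Sorcs3, groups with 3 or fewer counts in each library were compared by pooled counts with 95% counting intervals or by a bound from 3 counts. Log2 CPM per library used a pseudocount of 0.5. Genes and lists were chosen with earlier results of these data known. Named genes are the 3 genes, the neurotrophins, their receptors and the TFIIS family, called or extreme genes of the other lists, the 5 highest and 3 lowest correlates, the nearest genes, and the genes next in the order of difference. Positions come from GENCODE M21 on GRCm38, which held 21588 of the 21702 genes, and promoters from RefSeq, which held all 3. The procedure was tested on simulated counts. Alternatives were DESeq2 1.42.0, its size factors, limma 3.58.1 voom, other filters, the compared groups alone, a replicate block and each library left out. Figures were drawn with matplotlib. Samples of other assays were not analysed here. A few genes of the lists are not reported here.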

Additional observations from a re-analysis of the deposited data

How the results depend on the processing

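The directions of the tested differences held under every alternative that was run. Smim22 kept its call from 8 dpc to 16 dpc in AAV8-p21 samples under 6 of 6 other settings and in 6 of 6 fits without 1 library (log2 −4.18 to −3.24), and Tcea3 was called in none (−1.97 to −0.87 without 1 library). Ntrk2 lost its call with limma voom (−2.07) and in 5 fits without 1 library (−3.02 to −2.25 over 6 fits). Against NP samples, the bound for Smim22 in AAV8-null samples at 16 dpc ran from 11.2 to 25.6 without 1 library. With at least 10 counts in every library Ntrk2 and Smim22 drop out, so that filter gave no fitted value for them.

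The number of genes called moved with the test. Between stages in AAV8-p21 samples it was 334, against 556 with DESeq2 on all libraries, 684 with DESeq2 on the compared groups, 869 with limma voom and 154 to 393 without 1 library. Between vectors at 8 dpc it was 3, against 27, 81 and 88 by the same tests, 5 with edgeR on the compared groups, 0 under the filter of 10 counts in each library and 2 to 38 without 1 library. From NP to 16 dpc in AAV8-null samples it was 598, against 795, 749 and 888 by DESeq2 on all libraries, DESeq2 on the compared groups and limma voom, 382 with edgeR on the compared groups and 338 to 604 without 1 library. From NP to 8 dpc it was 0 in edgeR (803 genes at an unadjusted p under 0.05), against 61, 70 and 883 by DESeq2 on all libraries, DESeq2 on the compared groups and limma voom, and 0 to 91 without 1 library. Between vectors at 16 dpc it was 9, against 99, 122 and 87 by the same tests, 21 with no filter, 3 under the filter of 10 counts in each library, 5 with edgeR on the compared groups and 3 to 35 without 1 library. The cause was not tested.

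Same-numbered libraries did not deviate together on average (mean correlation of deviations 0.00878, lowest −0.492, highest 0.438, 7 of 18 pairs over 0.1). Of 12 libraries 4 correlated best with their own number. The numbers thus gave no sign of a common pairing, and a pairing between particular groups was not tested. With a replicate block in the 12 numbered libraries, 2 genes were called between vectors at 8 dpc and 549 from NP to 16 dpc, and no call of the 3 genes changed. No block could be fitted for AAV8-p21 at 16 dpc, whose columns carry no label numbers.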
